A study of Mus musculus with 8 samples.

Results

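Common myeloid progenitors (CMPs), bone marrow cells that give rise to the granulocyte, monocyte, megakaryocyte and erythroid lineages, were sorted from untreated wildtype C57BL/6J mice, and their RNA was labelled with Cy3 and hybridized to Agilent mouse arrays. The young mice were 2 to 3 months old (4 arrays, young replicates 3 to 6) and the old mice 22 to 24 months old (4 arrays, old replicates 2 to 5), with slightly higher ages in the description of the series. The study describes CMPs of single mice on the arrays, but of fewer mice per age than there are arrays here, and the labels do not name the mouse of an array. A p-value therefore measures the spread between these samples. The text below describes the 10 genes that encode the Myc proteins, their partner Max and the other proteins that pair with Max on this array, namely Myc, Mycn, Mycl1, Max, Mxd1, Mxd3, Mxd4, Mxi1, Mnt and Mga. They were taken by gene name, without use of the measured values, and had 12 probes among the 55681 probes of the array and its 34797 gene names. Of these genes, 8 had 1 probe and 2 (Mxd1 and Mxd4) had 2 probes.

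Myc, N-Myc and L-Myc are transcription factors that bind DNA only as dimers with Max, most often at the E-box sequence CACGTG, and raise the expression of genes for ribosome production, metabolism and cell growth. Mxd1, Mxi1, Mxd3, Mxd4, Mnt and Mga compete for Max and recruit repressor complexes to the same sites, so the set of available partners decides whether Max activates or represses. In the blood system Myc is needed for stem cells to leave their niche and differentiate, Myc and Mycn can replace each other in part, Mxd genes are induced as myeloid cells mature, and Mycn is a transcriptional target of the Hedgehog pathway, which is the subject of the study.

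The 3 Myc family probes are shown first, because the result turns on telling these related genes apart. These are the first 30 bases of each 60-base probe, written 5′ to 3′ as the array design gives them.
Myc: aacagttgaaacacaaactcgaacagcttc
Mycn: tgtactaattcctacacggcctgtatactt
Mycl1: gcttttttgcaaagtggtgttaactgtttt
In the coordinates of the mouse build mm9, which the files use, the Myc probe covers bases 61821417 to 61821476 of chromosome 15 (plus strand), the Mycn probe bases 12943193 to 12943252 of chromosome 12 (minus strand) and the Mycl1 probe bases 122679535 to 122679594 of chromosome 4 (plus strand). The longest run of bases that any pair of these 3 probes shared was 6 bases over their full length, and among the 64 pairs of probes for different members it was 10 bases. These runs compare probes only, and matches of a probe to the transcript of another member were not searched. The files name the gene of a probe but not its exon. All 12 probes matched a RefSeq transcript of a current gene symbol, with Mycl as the current name of Mycl1.

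Sequences around the transcription start sites were read from RefSeq windows on the build GRCm38.p6, whose coordinates cannot be set beside those of mm9. Each window holds 250 bases before the start site and 50 after it, and windows were found for all members except Myc. The first window is that of Mycn and the second that of Mycl1, the members whose young and old arrays did not overlap, each printed up to the start site. Capitals mark TTTGGCGC, a motif of the E2F factors that drive entry into S phase, searched on both strands. Mycn lies on the minus strand (chr12:12941837-12942086) and Mycl1 on the plus strand (chr4:122995681-122995930).
Mycn: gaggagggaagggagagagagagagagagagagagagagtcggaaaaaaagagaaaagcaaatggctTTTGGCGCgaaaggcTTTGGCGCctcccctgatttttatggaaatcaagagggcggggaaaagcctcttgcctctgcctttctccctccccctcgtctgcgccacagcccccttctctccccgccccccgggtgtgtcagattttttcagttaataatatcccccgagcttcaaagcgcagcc
Mycl1: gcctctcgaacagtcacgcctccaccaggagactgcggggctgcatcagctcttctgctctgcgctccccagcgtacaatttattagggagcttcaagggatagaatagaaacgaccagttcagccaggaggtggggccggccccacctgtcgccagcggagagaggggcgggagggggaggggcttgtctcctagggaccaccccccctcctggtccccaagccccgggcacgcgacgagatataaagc
The Mycn window held TTTGGCGC at 2 places, starting 183 and 168 bases before the start site, and no other member's window held it. Over all 32851 windows in the table, 0.514% held this motif. GACCACCCA, a binding motif of the Gli factors that carry Hedgehog signals to the genome, was searched on both strands in the same way. It was in none of the 11 windows of the members and in 0.253% of all windows, and its absence from 300 bases says nothing about Gli sites elsewhere at these genes.

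The E-box CACGTG, which reads the same on both strands, was present in the windows of Max, Mxd4 and Mnt. These stretches show it in capitals with 17 bases on either side, because these genes carry the site that their own proteins bind.
Max: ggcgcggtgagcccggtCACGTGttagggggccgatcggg
Mxd4: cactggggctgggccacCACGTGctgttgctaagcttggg
Mnt: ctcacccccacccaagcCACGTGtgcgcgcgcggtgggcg
The motif began 3 bases before the start site of Max on the minus strand (chr12:76962229-76962268), so that it spans the start, 219 bases before that of Mxd4 on the minus strand (chr5:34187907-34187946) and 123 bases before that of Mnt on the plus strand (chr11:74830784-74830823). It was in 3 of 11 windows of the members, in 20 of 68 windows of the Myc-induced target genes described below and in 7.15% of all windows. Neither Mycn nor Mycl1 held a CACGTG in its window, and these matches describe letters and not binding.

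Values are log2 intensities minus the array's 75th percentile, so a value of 0 means a signal at that percentile. The 75th percentile of intensity lay between 352 and 565 on the young and between 290 and 518 on the old arrays, and on each array 55.6% to 63.2% of all probes stood well above background. The arrays lay on 2 slides with 2 young and 2 old arrays each. A probe entered the limma test if 4 or more of the 8 arrays measured it well above background, and it was called at an adjusted p (Benjamini-Hochberg) under 0.05 and a fold change of at least 1.5. At the level of RNA, the sort markers Kit (2.70 in young, 3.01 in old) and Cd34 (6.75 in young, 6.54 in old) did not pass the test, and of the 10 genes whose proteins the sort excludes, Ly6g and Il7r were among those too dim to be tested, while Itgam, Cd3e and Cd4 RNA was present in young CMPs at 4.90, 2.23 and 2.51. Of the 7 that were tested, 6 were lower in old CMPs (median -0.32 on the log2 scale) and none was called. Among all 23155 tested genes 12131 were lower. Ly6a, which encodes Sca-1, the stem cell antigen that the gate excludes, had means of -0.12 in young and -0.85 in old CMPs (log2 fold change -0.73, adjusted p = 0.413 from limma), with every old array below every young array.

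Of the 12 member probes, 11 were tested and none was called by limma, where 0.191% of all 33476 tested probes were called. At an unadjusted p under 0.05, limma took 2 of the 11, against 6.35% of all tested probes, and these were Mycn, higher in old CMPs, and Mycl1, lower. Since Mycl1 passed the filter mainly through its young arrays, the count of 2 supports nothing about the members. Mycn was the only member with every old array above every young array, a pattern that 2.85% of all tested probes showed, and Mycl1 the only one with every old array below every young array, which 1.57% showed. In RNA of sorted populations, fewer cells that express a gene and less RNA per cell cannot be told apart.

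**Figure D1:**
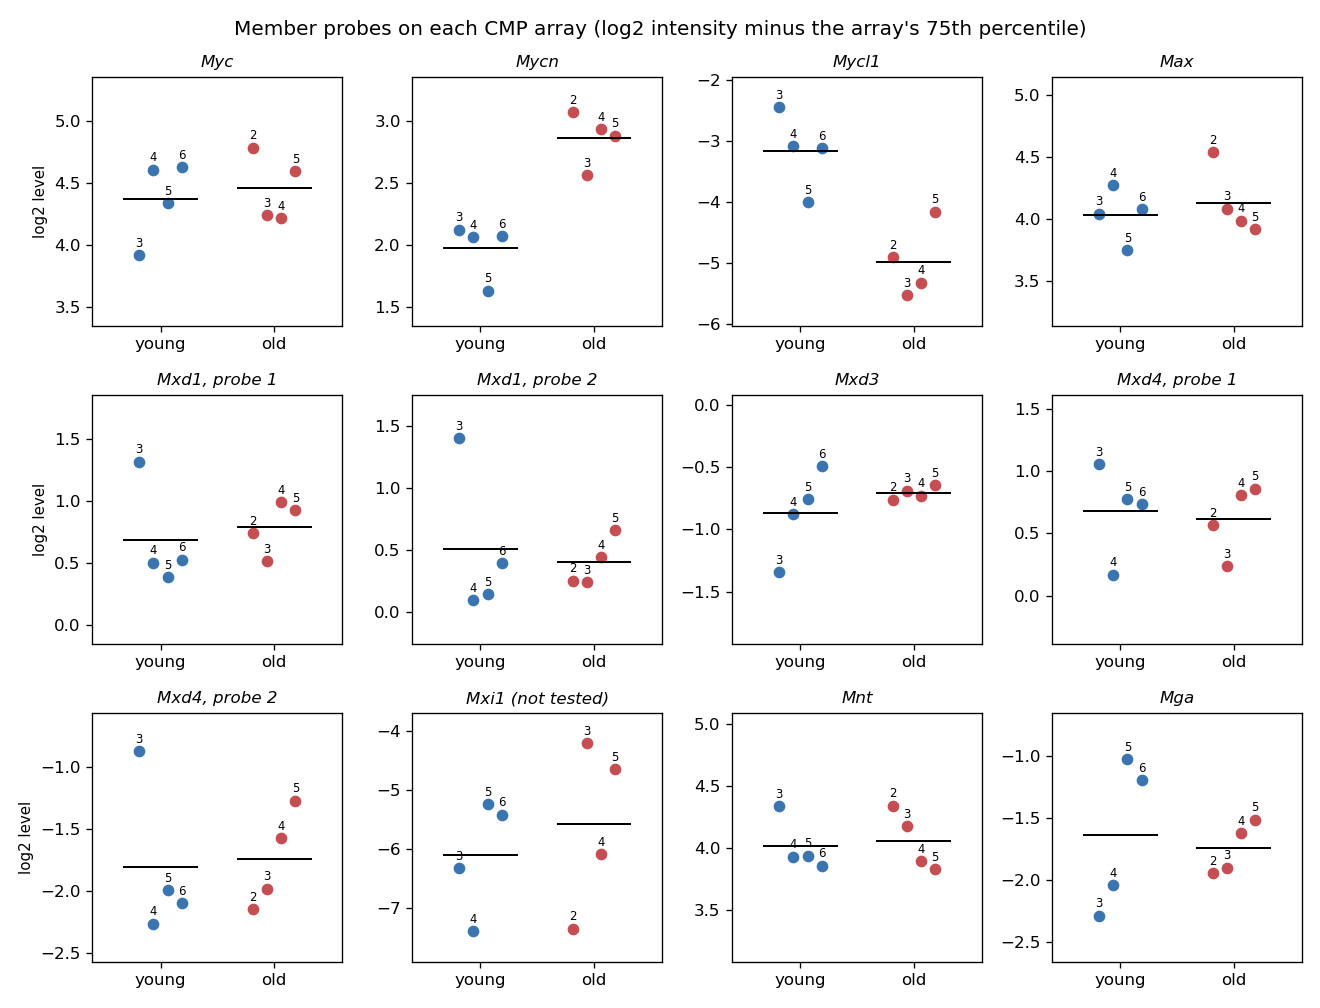
Log2 level (intensity minus the array's 75th percentile) of each of the 12 member probes on the 4 young arrays (blue) and the 4 old arrays (red), with the replicate number beside each point and a bar at the mean of each age, on a vertical axis of its own for each probe. The ages are separate for Mycn and Mycl1 and overlap for the other probes.

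Mycn, which encodes N-Myc, a factor of embryonic tissues and of stem and progenitor cells, had log2 levels of 2.12, 2.06, 1.63 and 2.07 in young replicates 3, 4, 5 and 6. The old replicates 2, 3, 4 and 5 had levels of 3.07, 2.56, 2.93 and 2.88. The lowest old array lay 0.44 above the highest young array, and the probe was well above background on all 8 arrays. Young CMPs had a mean of 1.97 ± 0.23 (SD, n = 4), and old CMPs had a mean of 2.86 ± 0.22 (SD, n = 4). The log2 fold change was 0.89 (standard error 0.19), or 1.85-fold with a 95% interval from 1.37 to 2.50. The unadjusted p of limma was 0.00102 and the adjusted p was 0.151, so the difference did not pass the test over all probes. The exact permutation test over the 70 splits of the arrays gave its smallest possible two-sided p of 0.0286. The difference was 0.91 on slide 1 and 0.87 on slide 2, and it stayed between 0.78 and 0.99 when each array was left out in turn. Under no other processing or design did its adjusted p fall below 0.0617, which limma gave with an intensity trend and robust variances.

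Mycl1, which encodes L-Myc, the family member best known from dendritic cells and small-cell lung tumours, was close to background. Its log2 levels were -2.45, -3.09, -4.01 and -3.12 in the young replicates, again in the order 3 to 6. The old replicates, in the order 2 to 5, had -4.91, -5.54, -5.32 and -4.16. All 4 young arrays were well above background at this probe but only 2 of the 4 old arrays (replicates 2 and 5), so the probe could be tested chiefly through the age in which it was brighter. The highest old array lay 0.16 below the lowest young array. Young CMPs had a mean of -3.17 ± 0.64 (SD, n = 4). The mean of old CMPs was -4.98 ± 0.61 (SD, n = 4), which made the log2 fold change -1.82 (standard error 0.38), or 3.52-fold lower. This size and its p rest on old values near background, 2 of which were not well above it. The unadjusted p of limma was 0.00075 and the adjusted p 0.130, and the exact permutation p was 0.0286. On slide 1 the log2 fold change was -2.35 and on slide 2 it was -1.28. With normexp background correction it was -0.42 (1.34-fold lower, adjusted p = 0.839 from limma), and with array weights Mycl1 was called (log2 fold change -2.08, adjusted p = 0.0268 from limma), the ends of the range of its adjusted p over the processing tried.

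**Figure D2:**
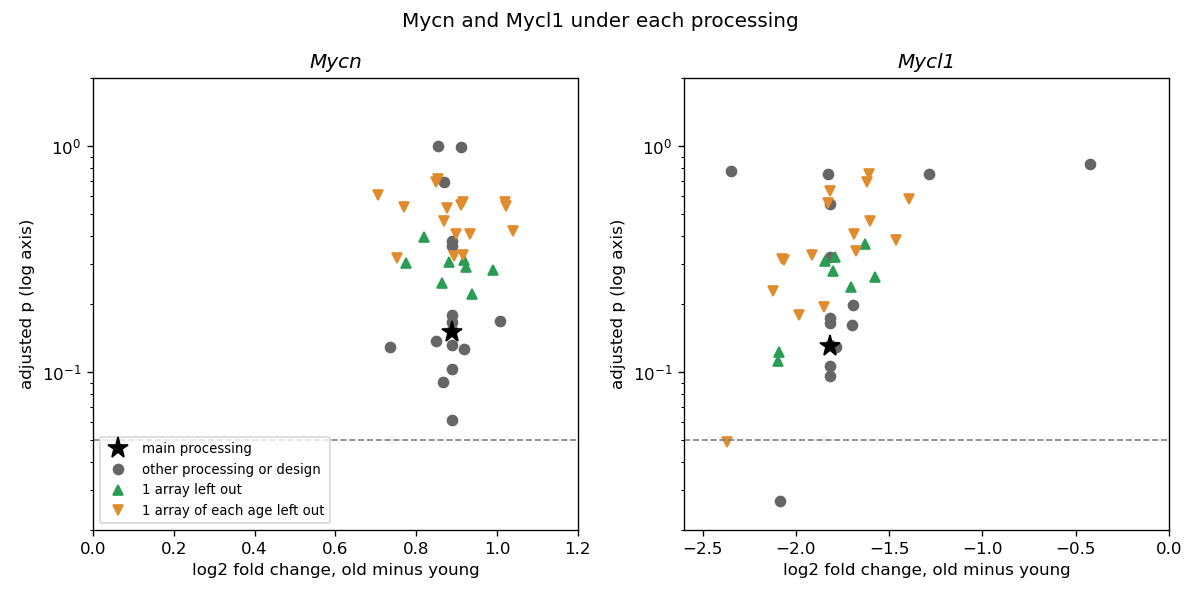
Log2 fold change (old minus young, horizontal axis) and adjusted p (vertical log axis) of Mycn and Mycl1 under each processing, with the main values as stars (0.89 and 0.151 for Mycn, -1.82 and 0.130 for Mycl1), other processing or design as grey circles and fits that leave out arrays as triangles. All Mycn points lie above the dashed line at 0.05, and the Mycl1 points reach from -2.37 to -0.42.

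Myc itself was bright and did not separate by age. Its log2 levels were 3.92, 4.61, 4.34 and 4.63 in the young replicates (3 to 6). The old replicates (2 to 5) had 4.79, 4.24, 4.22 and 4.60. The lowest array was young replicate 3 and the highest old replicate 2, and the other 6 arrays of both ages were interleaved between them. The mean was 4.38 ± 0.33 (SD, n = 4) for young CMPs and was 4.46 ± 0.28 (SD, n = 4) for old ones. The log2 fold change was 0.09 (standard error 0.22, adjusted p = 0.998 from limma) with a 95% interval from -0.42 to 0.59. This interval leaves room for a fold change between 0.749 and 1.503. Myc was the only member printed at 2 spots per array, and these spots differed by a mean SD of 0.063 on the log2 scale, well below the spread between arrays of 1 age. Without young replicate 3 the log2 fold change was -0.07.

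Max, the partner with which all 3 Myc proteins bind DNA, also overlapped between the ages. Its levels were 4.04, 4.27, 3.75 and 4.08 for the young arrays and 4.54, 4.08, 3.99 and 3.92 for the old arrays, in the same order of replicates, which also holds for the values that follow. Only old replicate 2 lay above all young arrays. The log2 fold change was 0.09 (standard error 0.20), with a 95% interval from -0.36 to 0.55.

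The repressors that pair with Max showed no age difference past the test. Mxd1, which opposes Myc in maturing granulocytes, was measured by 2 probes on chromosome 6, the first from 86597190 to 86597249 and the second from 86599053 to 86599112 (mm9, minus strand). The first read 1.32, 0.50, 0.39 and 0.53 in young and 0.74, 0.52, 0.99 and 0.93 in old CMPs. The second read 1.40, 0.10, 0.15 and 0.40 in young and 0.26, 0.24, 0.45 and 0.66 in old CMPs. At both probes young replicate 3 was the highest of all arrays, and the old arrays fell within the young range. The log2 fold changes were 0.11 (standard error 0.24) and -0.11 (standard error 0.29), of opposite sign.

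Mxd4, a further repressor of the Mxd group, had 2 probes on chromosome 5 (34519323 to 34519382 and 34519276 to 34519335, minus strand, mm9) that overlap by 13 bases and so do not measure separate stretches. The brighter one read 1.06, 0.17, 0.77 and 0.74 in young and 0.57, 0.24, 0.81 and 0.86 in old replicates. The dimmer one read -0.87, -2.26, -1.99 and -2.10 in young and -2.15, -1.98, -1.57 and -1.27 in old replicates. Again young replicate 3 was the highest array at each. The log2 fold changes were -0.07 (standard error 0.24) and 0.06 (standard error 0.33).

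Mxd3, the member of the Mxd group found in dividing cells, ran the other way on the same array, with levels of -1.35, -0.88, -0.76 and -0.49 in young and -0.76, -0.69, -0.73 and -0.65 in old replicates. Young replicate 3 was the lowest array, and the 4 old arrays lay within the young range. The log2 fold change was 0.16 (standard error 0.20). Mnt, the most broadly expressed antagonist of Myc, read 4.34, 3.93, 3.94 and 3.86 in young and 4.34, 4.18, 3.90 and 3.83 in old replicates, a log2 fold change of 0.04 (standard error 0.19). Its young replicate 3 and old replicate 2 were the high arrays. Mga, a very large protein that pairs with Max inside a Polycomb complex, read -2.29, -2.04, -1.03 and -1.20 in young and -1.95, -1.90, -1.62 and -1.51 in old replicates, a log2 fold change of -0.11 (standard error 0.30). The old arrays lay inside the young range. On slide 1 the Mga difference was 0.38 and on slide 2 it was -0.60. Mxi1 was not tested, because its probe, on chromosome 19 from 53450238 to 53450297 (mm9, plus strand), was not well above background on any young array and was so on 2 of the 4 old arrays (replicates 3 and 5).

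The 9 tested probes of these genes together with Myc and Max had log2 fold changes between -0.11 and 0.16 and exact permutation p-values between 0.543 and 0.914. The outer limits of their 95% intervals were -0.77 and 0.80, so that for the least precise of them a rise of up to 1.74-fold lay within the interval.

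**Figure D3:**
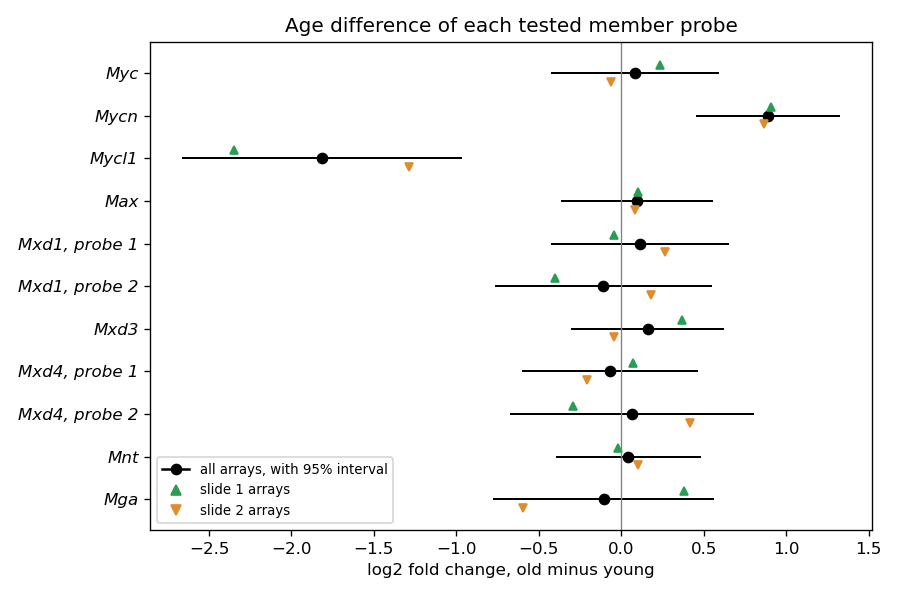
Log2 fold change (old minus young) of the 11 tested member probes, as circles with the 95% interval from limma over all 8 arrays, and as triangles for the 4 arrays of slide 1 and of slide 2. Only the intervals of Mycn and Mycl1 leave out 0.

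Markers of cell types were read on the same arrays. Among all 23155 tested genes, 47.6% had a higher mean in old CMPs and 44 were called higher. Of the megakaryocyte markers, 13 of 14 had a higher mean in old CMPs (median log2 fold change 1.10), and 1 was called (Gp9, a subunit of the platelet receptor for von Willebrand factor, 1.21, adjusted p = 0.0327 from limma). Of these 14 markers, 10 had every old array above every young array, as had 736 of all 23155 tested genes. The summed log2 level of the megakaryocyte markers was 6.62 to 7.62 on the young and 8.15 to 8.57 on the old arrays. HSC markers were higher for 9 of 12 tested genes, with a median of 0.54, and 1 was called (Hoxb5, 1.85, adjusted p = 0.00708 from limma). The young mean of Hoxb5 (-4.44) was below that of Mycl1 (-3.17). The size of the Hoxb5 change and its p thus rest on young values near background. The summed level of the HSC markers was 4.33 to 4.90 in young and 5.37 to 5.74 in old CMPs, a sum led by Pdzk1ip1. Without this gene it was 2.86 to 3.40 and 3.57 to 4.12. Their median level overlapped between the ages (-0.76 to -0.15 in young, -0.47 to -0.16 in old CMPs). Granulocyte and monocyte markers were lower for 13 of 15 genes, with a median of -0.47 and none called. Ly6c1, which encodes a surface antigen, had the smallest p (log2 fold change -1.52, adjusted p = 0.220 from limma), followed by the granule proteins Mpo (-0.59) and Prtn3 (-1.01). These 3 were among the 5 of 15 genes with every old array below every young array, which 385 of all 23155 tested genes showed. The summed level of the granulocyte and monocyte markers was 10.2 to 10.5 in young and 9.79 to 9.96 in old CMPs. Without Mpo, which led the sum, it was 9.38 to 9.79 and 8.99 to 9.34, and the median levels overlapped (4.98 to 5.61 and 3.69 to 5.35). Without old replicate 4, the median log2 fold change was 0.81 for the HSC and -0.30 for the granulocyte and monocyte markers. Of the genes in these lists only Mecom, an HSC gene, was too dim to be tested. The part of these cell types in the Mycn and Mycl1 values was not tested.

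Mycn, Ptch1 and Bcl2 are among the Hedgehog target genes that the study measured by PCR. On the arrays Ptch1, the Hedgehog receptor, had means of -1.75 in young and -1.68 in old CMPs, which gave 0.07 on the log2 scale (standard error 0.24). Bcl2, an inhibitor of apoptosis, had means of 2.87 and 2.62, or -0.25 on the log2 scale (standard error 0.20). Neither passed the test (adjusted p = 0.998 from limma for each).

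The genes that Myc dimers are known to act on were read next. Myc-induced targets, mostly genes of ribosome production, nucleotide synthesis and mitochondria, were all tested, and 52 of 67 (77.6%) had a higher mean in old than in young CMPs. None was called, and the median over the list was 0.09 on the log2 scale. Among all 23155 tested genes 47.6% had a higher mean, with a median of -0.01. This count rested on 1 array. Without young replicate 3, 29 of the 67 (43.3%) were higher, with a median of -0.02, beside 44.9% of all genes, whereas leaving out any other array gave between 56.7% and 80.6%. The share was 67.2% with normexp, 59.7% with quantile normalization and 89.6% with a median shift, where all genes gave 56.2%, 48.4% and 65.6%. The median level of the list was 3.80, 4.32, 4.23 and 4.27 on the young and 4.34, 4.55, 4.05 and 3.91 on the old arrays. Young replicate 3 was thus the lowest array for these targets, as it was for Myc. The smallest p-values belonged to Tert, the catalytic subunit of telomerase, with means of -1.90 in young and -2.62 in old CMPs (log2 fold change -0.72, unadjusted p = 0.0171, adjusted p = 0.528 from limma), and to Ipo4 and Pprc1, with log2 fold changes of 0.40 and 0.29 that did not pass.

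Genes that Myc represses were higher for 6 of 8 tested members of the list, with a median of 0.14 and none called. Among all 23155 tested genes 47.6% were higher. Ndrg1, a stress-induced gene, had the smallest p (log2 fold change 0.62, adjusted p = 0.534 from limma). Ndrg2 had a log2 fold change of 0.50 and Thbs1, the secreted thrombospondin, one of 0.76. All 3 had an unadjusted p under 0.05 in limma, as had 6.35% of all tested probes. Ndrg1 and Ndrg2 had every old array above every young array, as had 736 of the 23155 tested genes. Cdkn1a and Cdkn1b, the inhibitors of cyclin-dependent kinases p21 and p27, had log2 fold changes of 0.23 and 0.05. Without young replicate 3, 7 of the 8 were higher, with a median of 0.34, beside 44.9% of all genes.

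**Figure D4:**
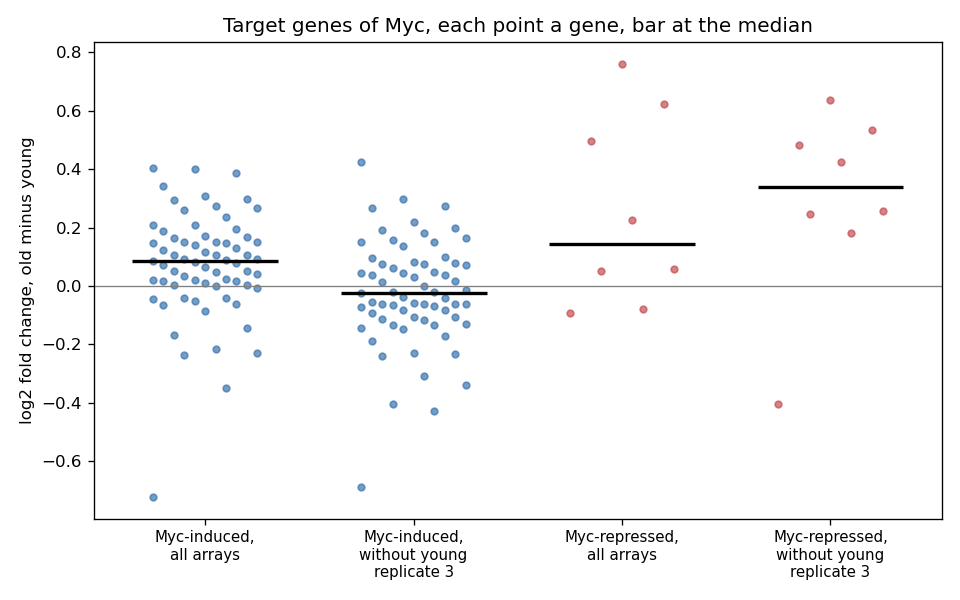
Log2 fold change (old minus young) of each tested gene of the Myc-induced list (67 genes, blue) and the Myc-repressed list (8 genes, red), over all 8 arrays and without young replicate 3, with a bar at the median. The median of the induced genes is 0.09 with all arrays and -0.02 without that array, and that of the repressed genes is 0.14 and 0.34.

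No cofactor of the network was called, and none had an unadjusted p under 0.05 in limma. Of the corepressors that Mxd proteins and Mnt recruit (such as Sin3 and histone deacetylases), 7 of 13 were higher, with a median of 0.03, but 4 with normexp (median -0.065), with quantile normalization (-0.038), without young replicate 3 (-0.028) and without old replicate 5 (-0.019), and 10 with the median shift (0.14). Sap30 and Sin3a had log2 fold changes of -0.21 and -0.14. Of the coactivators of Myc, 9 of 16 tested were higher, with a median of 0.01. The count was 14 with the median shift, where 65.6% of all genes were higher, and 14 without old replicate 5. It was 6 without old replicate 2 (median -0.055) and 7 without old replicate 3 (median -0.058). Bptf, a chromatin remodelling subunit that assists Myc, had the smallest p with a log2 fold change of -0.37. Of the genes listed for the Polycomb complex of Mga, which include Mga and Max themselves, 7 of 12 were higher, but 11 with the median shift and 4 without old replicate 2. Their median was 0.03 and their range from -0.20 to 0.19. Yaf2, a subunit of this complex, had the smallest p with a log2 fold change of 0.17. Of the genes that set the turnover of Myc protein, 7 of 15 were higher, with a median of 0.00. The count was 10 without young replicate 4 (median 0.051) and 5 without young replicate 3 (-0.066) or without old replicate 2 (-0.024). It was 6 with quantile normalization and 9 with the median shift. Fbxw7, the ubiquitin ligase subunit that marks Myc for degradation, had a log2 fold change of -0.17 and Huwe1, another ligase, one of -0.19. In the parallel branch built on Mlx, 2 of 5 were higher, and 1 to 4 when each array was left out (1 without young replicate 3 or young replicate 4, 4 without young replicate 5). Its glucose-induced target Txnip had a log2 fold change of 0.85 with a wide standard error of 0.56. Of the cell cycle genes, 10 of 20 were higher, with a median of 0.00. Without young replicate 3, 4 of the 20 were higher, with a median of -0.16, beside 44.9% of all genes. Aurkb, a mitotic kinase, had the smallest p of these (log2 fold change -0.44, adjusted p = 0.673 from limma).

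The loci were then read for neighbours that moved along. Within 500 kb of the probe, 10 other probes were tested around Mycn, 31 around Myc and 20 around Mycl1. None of them was called, and none had an unadjusted p under 0.05 in limma. Around Mycn, the log2 fold changes were between -0.83 and 0.43, and the genes Ddx1 and Nbas, often amplified together with MYCN in tumours, had values of 0.12 and -0.18. Around Myc they were between -0.68 and 0.27, and around Mycl1 between -0.65 and 0.33.

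**Figure D5:**
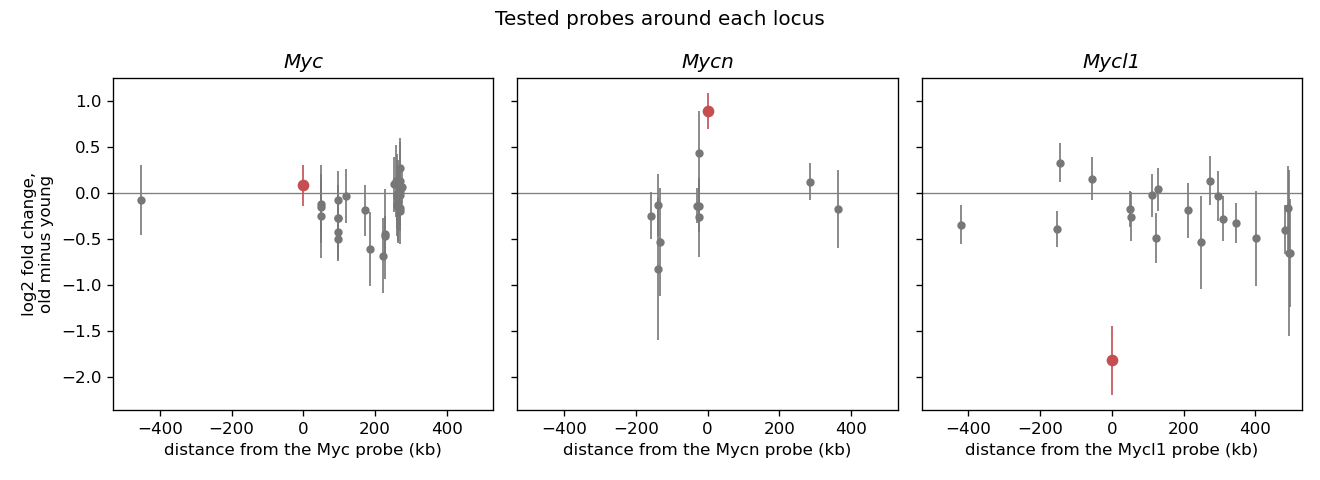
Log2 fold change (old minus young, with its standard error) of each tested probe within 500 kb, by its distance in kb from the Myc, Mycn or Mycl1 probe, which is drawn in red. The Mycn probe at 0.89 and the Mycl1 probe at -1.82 lie outside the range of their neighbours.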

How the data were processed

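RNA of sorted CMPs was hybridized by the authors to 1-colour Agilent arrays (4 for young and 4 for old mice) and scanned with Feature Extraction 10.7.3.1, per the submitters' processing notes. The deposited files give a background-corrected intensity per spot, with probe coordinates of mm9. A table of log2 values that the authors also deposited was described in their methods as scaled by the 75th percentile and set against a baseline. On every array it correlated with the intensities, shifted and centred in the same way, at 0.999 over its 39156 lines of 1 probe. This correlation is across probes. Its column medians lay between -0.11 and 0.15, and it was an alternative only.

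From the intensities, log2 values minus each array's 75th percentile were computed, outlier-marked spots were dropped and each probe's remaining spots averaged. A probe counted as well above background where more than 50% of its spots did. The 33476 probes well above background on at least 4 of 8 arrays were tested with limma 3.58.1 (lmFit and eBayes, R 4.3.3, data.table version 1.17.8). Arrays have no sequencing depth, and their number limits the precision. Single probes were also tested by an exact two-sided permutation test. The limma code was tested on simulated data. The brightest probe by mean stood for each listed gene, and lists were described without a test. Besides the lists in the report, erythroid, lymphoid and endothelial markers were read. Named were all member probes, of each list the called genes and up to 3 of those with the smallest p, and for Myc and Mycn the 3 genes of most similar pattern. Cdkn1a, Cdkn1b, Fbxw7, Itgam, Cd3e, Cd4, Ddx1 and Nbas were named for their known role, after their values were seen. The members and lists were chosen with earlier results of these data known. The study gives 3 mice per age and does not name the arrays, so all 8 were used and each choice of 3 and 3 was an alternative. The replicate numbers 3, 4 and 5 occur at both ages, but the deviations of same-numbered arrays correlated at -0.09, -0.14 and 0.15, so the arrays were not treated as paired. The alternatives were other background correction (normexp with an offset of 50), scaling, filters, spot and probe averaging, variance models, tests and blocks, the series table and arrays left out. RefSeq windows were searched for motifs with Python.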

Additional observations from a re-analysis of the deposited data

Results flagged for a closer look

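In 3 of the 24 combinations of a member probe and an age, 1 array stood apart from the other 3 by Dixon's ratio, where chance gives about 1 in 20. Young replicate 5 was low for Mycn (1.63, with the next array at 2.06), and without it the log2 fold change of Mycn was 0.78. Young replicate 3 was high for Mxd1 at its first probe (1.32, with the next array at 0.53) and for Mnt (4.34, with the next array at 3.94). Young replicate 3 was also the array on which Myc and the median of the Myc-induced targets were lowest. The cause was not tested.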

How the results depend on the processing

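Mycn kept its direction under all 41 alternatives (log2 fold change 0.71 to 1.04), and Mycl1 under the 40 in which it was tested (-2.37 to -0.42). No member probe was called except 1, Mycl1, with array weights (-2.08) and without young replicate 5 and old replicate 5 (-2.37, adjusted p = 0.0491 from limma), and 2 with limma without adjustment. Leaving out arrays, 1 or 1 of each age, thus gave 0 or 1 called member probe. The probes called higher over the whole array (53) numbered 82 with normexp, 26 with no filter, 33 with the filter on all 8 arrays, 85 with an intensity trend, 137 with array weights, 0 with the methods' t-test, 863 without adjustment, 35 with the slide as a block and 8 to 40 with arrays left out. Those called lower (11) numbered 22 with normexp, 3 with quantile normalization, 5 with the median shift, 6 with the series table, 2 with no filter, 6 and 7 with the filters on 2 and on all 8 arrays, 52 with array weights, 0 with the methods' t-test, 731 without adjustment, 4 with the slide as a block and 1 to 6 with arrays left out. Within slide 1 and within slide 2 the counts were 0 and 0. With the replicate block, 10 probes were higher and 1 lower, the Mycn difference was 0.85 (unadjusted p = 0.0244 from limma), and Max (-0.025), Mnt (-0.10) and Mga (0.11) turned sign. Other uncalled values turned sign too, Myc with array weights (-0.057) and on slide 2 (-0.065), Mxd1 (-0.044), Mxd4 (0.074), Mnt (-0.018) and Mga (0.38) on slide 1, Mxd3 on slide 2 (-0.043), Mxd4 (0.052) and Mga (0.011) with the median shift, and Mnt with quantile normalization (-0.023). With arrays left out, Myc ranged from -0.17 to 0.25, Max from -0.14 to 0.24, Mxd1 from -0.054 to 0.41, Mxd3 from -0.018 to 0.31, Mxd4 from -0.32 to 0.19, Mnt from -0.10 to 0.23 and Mga from -0.40 to 0.16. The median shift set the median of all tested probes to 0.10, against -0.02 with the 75th percentile, 0.032 with normexp and -0.0040 with quantile normalization, and put 8 of the 8 Myc-repressed targets higher. The runs of the gene lists under other scalings, without single arrays and without the brightest gene were chosen after seeing the data. Causes were not tested. The signal near background limits Mycl1 and Mxi1.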

Other observations

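Over the 8 arrays, the patterns most like that of Mycn belonged to Prnp, the prion protein (Pearson r = 0.985 over 8 arrays, 0.908 after the mean of each age was removed), Cd9, a tetraspanin of platelets and megakaryocytes (0.983 and 0.949), and Gdpd2, a phosphodiesterase (0.983 and 0.899). They were the highest of 23128 genes compared, and the arrays share the age groups. The log2 fold changes of these genes were 0.64, 0.91 and 1.01, and none was called (adjusted p from limma 0.301, 0.220 and 0.132). The patterns most like that of Myc belonged to Pole2, a subunit of DNA polymerase epsilon (0.984), Tmem41a (0.984) and Amacr (0.978). Their log2 fold changes were 0.11, 0.10 and 0.08.

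Among the marker lists of other cell types, erythroid markers were higher for 5 of 11 tested genes with a median log2 fold change of -0.01, but for 8 without young replicate 3 (median 0.11) and for 3 without old replicate 2 (-0.13). Over all tested genes 47.6% were higher. Gata1 had a value of 0.73 (adjusted p = 0.355 from limma) and Car2 one of 0.63. They were named for the smallest p of the erythroid list, in which 6 of the 11 genes were lower. Lymphoid markers were lower for 7 of 7 tested genes with a median of -0.22 and none at an unadjusted p under 0.05, and 6 of the 13 were too dim to be tested. Endothelial markers were higher for 6 of 8 tested genes with a median of 0.37, which was 0.11 without young replicate 3, 0.14 without old replicate 5 and 0.64 without old replicate 4. Of these, Esam (1.23), Emcn (0.96) and Tie1 (1.01) had every old array above every young array, as had 736 of all 23155 tested genes. Tie1 is also in the HSC list. None of these 3 lists had a called gene.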
